A study of Homo sapiens with 8 samples.

Results

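The 10 genes described here encode serine/arginine-rich (SR) splicing factors and their relatives, namely SRSF1 to SRSF7, SRSF11, TRA2A and TRA2B. The peaks of the RNA-binding protein RBM45 that shared at least 1 base with a gene's hg19 window, on the gene's strand, were taken as its peaks. There were 42 such peaks of 210878 in the first WT replicate, 22 of 65587 in the second, and 15 of the 13758 deposited pairs of peaks common to both. Peaks that appear on both strands enter these totals as 2 entries. The windows cover 168.6 kb in all.

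The cells were HEK293T, an established human embryonic kidney line. They were transduced with a lentivirus that expresses human RBM45 carrying FLAG and HA tags, and were irradiated with ultraviolet light of 254 nm at 300 mJ/cm2 to cross-link protein to RNA. Bound RNA was recovered with an antibody to the HA tag (CLIP, cross-linking and immunoprecipitation), and size-matched input RNA was prepared without antibody. The 8 libraries form 4 groups of 2 replicates, CLIP and input from wild-type (WT) cells and from Mettl3 KO cells, which lack the main writer of the RNA mark m6A. All groups carry the tagged RBM45, so the peaks are those of an introduced protein. Only the peak lists of the 2 WT CLIP libraries were used, and input and Mettl3 KO were not analysed here. The labels do not tell separate cultures from repeats of 1 culture, so the spread between replicates may be technical.

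SR proteins bind exonic enhancer sequences through RNA recognition motifs and recruit the splicing machinery through a domain rich in arginine and serine. The TRA2 proteins are human relatives of the fly sex-determination factor Transformer-2 and favour purine-rich enhancers. Many of these genes regulate themselves: their pre-mRNAs hold highly conserved "poison" exons, whose inclusion brings a premature stop codon and decay of the transcript. RBM45 is a protein with RNA recognition motifs that has been linked to RNA processing in the nucleus and, by the title of the study, to m6A and to the splicing of a set of pre-mRNAs.

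RBM45 peaks were spread unevenly over the family. In replicate 1, 7 of the 10 genes held at least 1 peak, in replicate 2 it was 6, and 4 genes held a shared pair. SRSF4 carried the most, with 17 replicate 1 peaks, 10 replicate 2 peaks and 8 pairs, which is 40.5% and 45.5% of all peaks in the family on 20.4% of its summed length. SRSF6 had 3 peaks in each list and 3 pairs, and SRSF3 had 4, 3 and 2 pairs. SRSF11 had 5 and 3 peaks with 2 pairs. TRA2A, TRA2B and SRSF1 had peaks but no pair, and SRSF2, SRSF5 and SRSF7 had no peak in either list. Scaled by length, SRSF6 stood highest in both lists with 0.523 peaks per kb. SRSF4 followed in replicate 1 with 0.494 peaks per kb, and SRSF3 and SRSF4 followed in replicate 2 with 0.295 and 0.291. SRSF11, the longest gene, was at 0.108 and 0.065. Each list comes from 1 library, so these differences between genes have no test, and a gene with few peaks gives a coarse rate. The same counts and rates over other genes need hg19 annotation and were not computed. The family's values therefore cannot be called high or low. The level of each transcript was not measured here, and its part in the number of peaks was not tested.

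**Figure D1:**
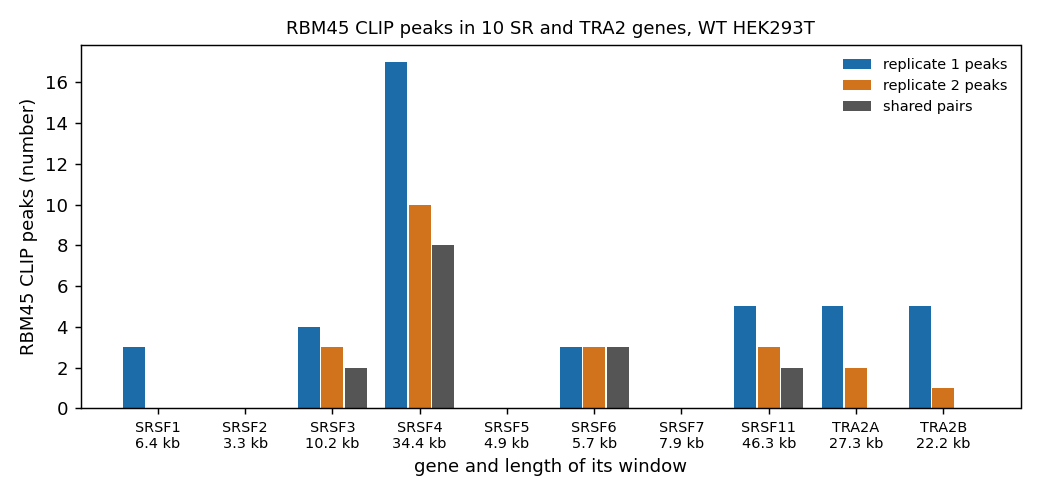
Number of RBM45 CLIP peaks (vertical axis) in each of the 10 genes (horizontal axis, with window length in kb) for replicate 1, replicate 2 and the shared pairs. SRSF4 stands highest with 17, 10 and 8, and SRSF2, SRSF5 and SRSF7 have none.

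SRSF4 encodes an SR protein with an unusually long arginine/serine-rich tail. Its window is chromosome 1, 29474255 to 29508637, on the minus strand. The peaks lay mainly toward the start of the gene: 11 of 17 in replicate 1 and 9 of 10 in replicate 2 began within 10 kb of the window's start. Distances are given from there to the nearer edge of the peak, in the direction of transcription. Close to the start, a pair of neighbouring peaks appeared in both lists. The first lay 893 bases in, at 29507713 to 29507744 in replicate 1, with a fold enrichment over the caller's background of 6.15 in replicate 1 and 4.50 in replicate 2. The second lay 975 bases in, at 29507610 to 29507662, with 5.26-fold and 4.03-fold. The second had the highest −log10 p of all SRSF4 peaks in replicate 1, 33.48, while the first had the highest fold there.

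A second group of SRSF4 pairs lay between 5650 and 7769 bases from the start. The pair at 6166 bases, 29502442 to 29502471 in replicate 1 and 29502421 to 29502475 in replicate 2, had 3.43-fold and 6.27-fold. Its replicate 2 peak, with a −log10 p of 27.77, was the strongest of SRSF4 in that list by both measures. The neighbouring pairs were lower in fold. At 5650 bases the values were 1.96 and 3.18, at 7070 bases 2.23 and 2.81, at 7479 bases 3.16 and 3.12, and at 7769 bases 1.65 and 1.63. The last SRSF4 pair stood alone near the far end of the gene, 32731 bases in, with 5.25-fold and 4.04-fold.

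The other SRSF4 peaks were listed in 1 replicate only. In replicate 1 they numbered 9, and the strongest lay 15821 bases in, at 29492756 to 29492816, with 4.86-fold and a −log10 p of 20.38. No replicate 2 peak lay within 5799 bases of it. In replicate 2 they numbered 2. The peak at 6997 bases, with 4.0-fold, lay 43 bases from a replicate 1 peak, and the peak at 9992 bases, with 2.28-fold, lay 1212 bases from the nearest. On a fixed grid of 10-kb windows of 1 strand, the window at chromosome 1, 29500001 to 29510000, held 11 replicate 1 peaks and 8 replicate 2 peaks. Among windows with any peak, 2.64% held as many in replicate 1 and 2.35% in replicate 2, and the median was 2 and 1. This window was picked as the densest of the family after the values were seen.

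**Figure D2:**
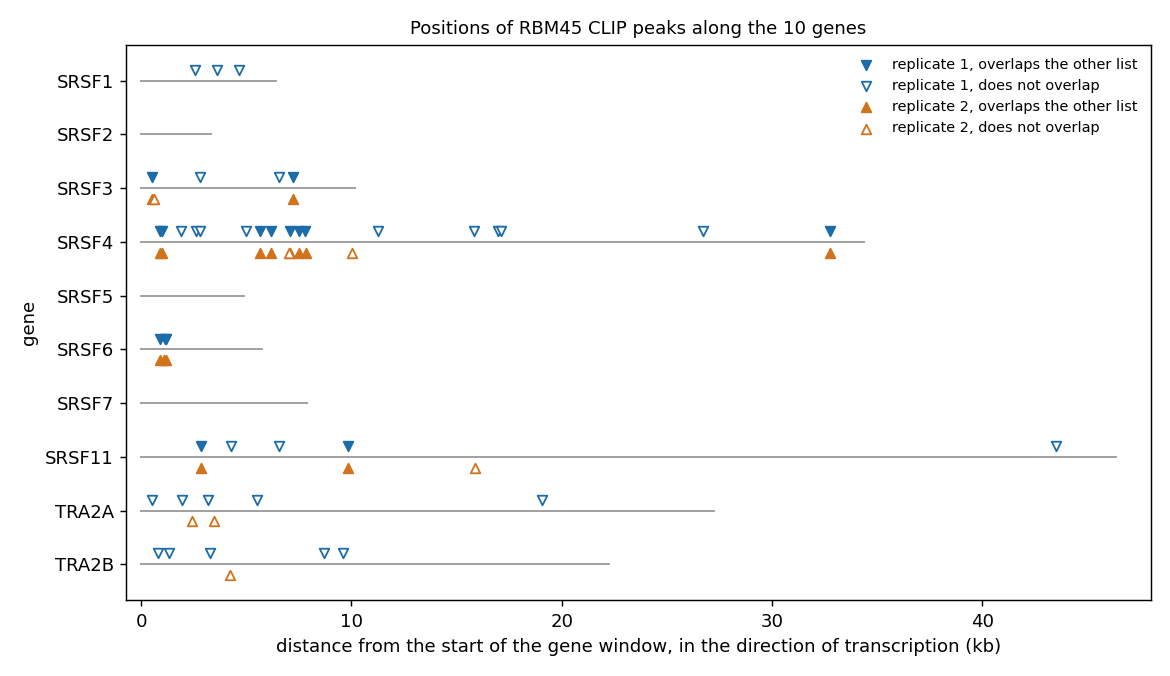
Positions of RBM45 CLIP peaks along each gene (vertical axis), as distance from the start of the gene window in kb in the direction of transcription (horizontal axis). Grey lines show the windows, downward triangles replicate 1, upward triangles replicate 2, and filled symbols peaks that overlap the other list. In SRSF4 most filled symbols lie within 10 kb of the start, in SRSF6 all lie close to 1 kb, and TRA2A and TRA2B have open symbols only.

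SRSF6 belongs to the same structural subgroup of SR proteins as SRSF4 and SRSF5. Its window, chromosome 20, 42086504 to 42092244, plus strand, held 3 peaks in each list, and all of them were paired. They lay in 1 short stretch, with edges nearest the start at 854 to 1182 bases, while the rest of the 5.74-kb window had none. The strongest pair, 863 bases in, was at 42087367 to 42087414 in replicate 1 and 42087358 to 42087409 in replicate 2. It had 8.46-fold and 6.13-fold and a −log10 p of 46.66 and 31.84, the highest −log10 p of the family in both lists. Ranked by −log10 p over all peaks, it came at place 155 in replicate 1 and at place 122 in replicate 2. The pair at 1095 bases had 2.61-fold and 3.61-fold, and the pair at 1180 bases 2.50-fold and 2.31-fold. SRSF5 (chromosome 14, 70233852 to 70238722, plus strand), whose window of 4.87 kb is close to that of SRSF6 in length, had no peak in either list.

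SRSF3 is the smallest SR protein and takes part in messenger RNA export and in the choice of polyadenylation site as well as in splicing. Its window is chromosome 6, 36562090 to 36572244, plus strand. The pair nearest the start, 476 bases in, lay at 36562566 to 36562598 in replicate 1 and 36562567 to 36562636 in replicate 2. It had 5.38-fold and 6.38-fold and a −log10 p of 21.70 and 20.27, so it was strong in both lists. A second pair, 7208 bases in, had 3.08-fold and 3.58-fold. The SRSF3 peak with the highest fold in replicate 1, 5.52 at 36564886 to 36564920, had no replicate 2 counterpart, and the nearest lay 2139 bases away. A wide peak of 103 bases in replicate 1 with 2.53-fold and a replicate 2 peak with 2.84-fold were also unmatched. SRSF7, the SR protein most like SRSF3 and one that adds a zinc knuckle, had no peak in its 7.90-kb window, chromosome 2, 38970741 to 38978636, minus strand.

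SRSF11 encodes an SR-related protein found in nuclear speckles. Its window is chromosome 1, 70671365 to 70717701, plus strand. The pair with the higher fold lay 2832 bases in, at 70674197 to 70674226 in replicate 1, with 4.51-fold and 7.91-fold. The latter was the highest fold of the family in replicate 2. The other pair, 9801 bases in, had 4.35-fold and 4.23-fold. Of the unmatched peaks, the 3 of replicate 1 had 3.77-fold, 3.96-fold and 2.57-fold, and the 1 of replicate 2 had 2.18-fold. The 2.57-fold peak lay 43487 bases in, and the nearest replicate 2 peak was 27578 bases away.

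TRA2A and TRA2B, close paralogues, both had 5 replicate 1 peaks, and neither had a pair. The TRA2A window is chromosome 7, 23544399 to 23571660, minus strand. Its strongest replicate 1 peak, at 23568439 to 23568502, had 5.03-fold and a −log10 p of 22.15, and the nearest replicate 2 peak lay 215 bases away with 2.30-fold. The other TRA2A peak of replicate 2, at 23569251 to 23569283, had 3.84-fold and a −log10 p of 11.13, and lay 428 bases from a replicate 1 peak. The other 4 TRA2A peaks of replicate 1 ranged from 1.95-fold to 4.08-fold.

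The TRA2B window is chromosome 3, 185633694 to 185655924, minus strand. Its strongest replicate 1 peak, at 185647225 to 185647255, had 4.02-fold and a −log10 p of 11.93, and the other 4 ranged from 1.99-fold to 3.86-fold. The 1 replicate 2 peak, at 185651667 to 185651696, had 3.48-fold and lay 939 bases from the nearest replicate 1 peak. Over the 2 TRA2 genes, 0 of 10 replicate 1 peaks overlapped replicate 2 (95% exact Clopper-Pearson interval up to 30.8%), beside 8.88% of the whole replicate 1 list. Of their replicate 2 peaks, 0 of 3 overlapped replicate 1 (interval up to 70.8%), beside 28.8% of that list. Both whole-list shares lay inside these intervals, and so few peaks do not set the TRA2 genes apart from the lists. In the 8 SRSF genes 15 of 32 replicate 1 peaks overlapped, or 46.9% (interval 29.1 to 65.3). Of their replicate 2 peaks, 15 of 19 overlapped, or 78.9% (54.4 to 93.9). The SRSF genes differed among themselves, from 0 of 3 replicate 1 peaks in SRSF1 to 3 of 3 in SRSF6. Peaks of a gene come from 1 library and share their transcript, so these intervals cover counting error only, and the difference between TRA2 and SRSF genes was not tested.

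SRSF1, the founding SR protein, had 3 replicate 1 peaks in its window, chromosome 17, 56078280 to 56084707, minus strand, and none in replicate 2. The strongest, at 56080030 to 56080060, had a −log10 p of 23.58 with 2.88-fold, the highest fold of the 3. The others had 1.89-fold and 1.27-fold. No replicate 2 peak of that strand lay within 48345 bases of these peaks. SRSF2, whose protein is found in nuclear speckles, had no peak in its 3.30-kb window, chromosome 17, 74730197 to 74733493, minus strand. The 3 genes without a peak are among the 5 shortest, 16.06 kb together. The other 2 of these 5 are SRSF6 and SRSF1, and the part of window length was not tested. A missing entry says only that no peak is listed, because the read depth behind each list is unknown.

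Peaks in these genes had a high −log10 p beside an ordinary fold. The median −log10 p was 7.28 in replicate 1 (quartiles 5.64 and 10.10) and 9.83 in replicate 2 (5.89 and 14.33), against 3.70 and 4.24 over the whole lists. The stronger 50% of each list by −log10 p held 39 of the 42 replicate 1 peaks and 20 of the 22 replicate 2 peaks, where the share is 50% over all peaks by construction. The median fold was 2.93 in replicate 1 and 3.60 in replicate 2, against 3.12 and 3.81 over all peaks. Peaks of at least 5-fold numbered 7 of 42, or 16.7% (interval 6.97 to 31.4), beside 9.16% of all replicate 1 peaks. In replicate 2 it was 4 of 22, or 18.2% (5.19 to 40.3), beside 18.0%. The median width was 34.5 and 39.5 bases, against 30 and 31 bases over all peaks. Both measures are those of the authors' lists, and they rank or describe peaks of 1 list.

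**Figure D3:**
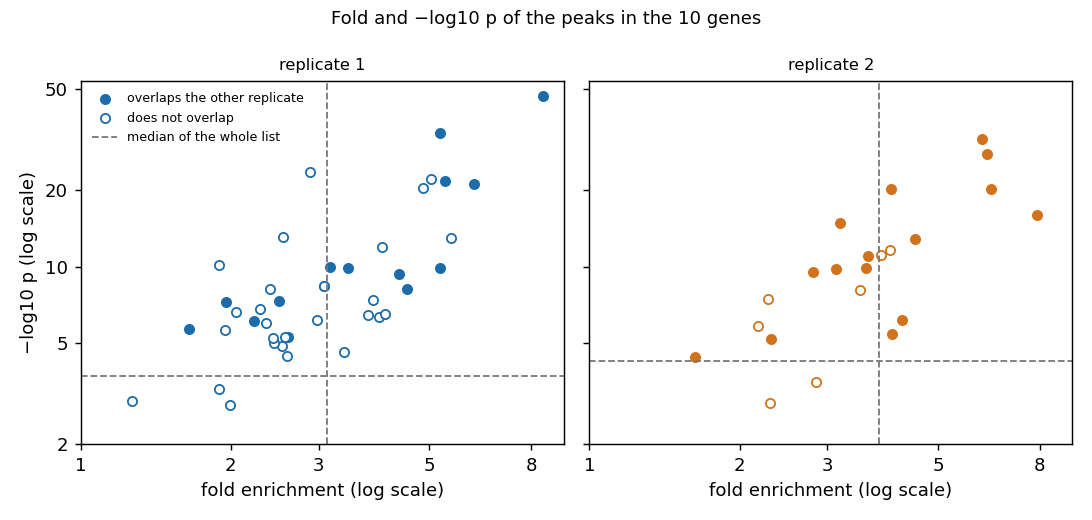
Fold enrichment (horizontal, log scale) and −log10 p (vertical, log scale) of each peak in the 10 genes, with replicate 1 left and replicate 2 right. Dashed lines mark the medians of the whole lists, 3.12 and 3.81 for fold and 3.70 and 4.24 for −log10 p, and most peaks lie above the horizontal line and on both sides of the vertical one.

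The 2 replicates were then compared for the positions they shared. Of the 22 replicate 2 peaks, 15 overlapped a replicate 1 peak, or 68.2% (interval 45.1 to 86.1), beside 28.8% of the whole replicate 2 list. From the other side, 15 of 42 replicate 1 peaks overlapped, or 35.7% (21.6 to 52.0), beside 8.88% of the whole list. The same shares were taken by class of −log10 p. Among replicate 2 peaks with a −log10 p of 10 or more, 8 of 10 overlapped in the family (interval 44.4 to 97.5) and 62.6% in the whole list. Between 5 and 10 it was 6 of 9 (29.9 to 92.5) beside 36.7%, and below 5 it was 1 of 3 beside 20.9%, so the whole-list share lay inside the family's interval in every class. In replicate 1 the classes, again from the strongest, gave 4 of 11 or 36.4% (10.9 to 69.2) beside 42.1%, 11 of 24 or 45.8% (25.6 to 67.2) beside 15.5%, and 0 of 7 beside 4.65%, so the family's share was not highest in the strongest class. The middle class of replicate 1 was the 1 class where the whole-list share lay outside the interval. Without SRSF4 the replicate 2 share over all classes was 7 of 12, or 58.3% (interval 27.7 to 84.8), which includes the 28.8% of the whole list. The replicate 1 share over all classes without SRSF4 was 7 of 25 (interval 12.1 to 49.4%), beside 8.88% of the whole list, which lies outside it. Those 7 overlaps lay in SRSF3, SRSF6 and SRSF11 only. This share was not split by class, and the family's replicate 1 peaks had a higher median −log10 p than the list, 7.28 against 3.70. Peaks of a gene share their transcript and library, so all these intervals cover counting error only, and no excess of the family was tested.

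**Figure D4:**
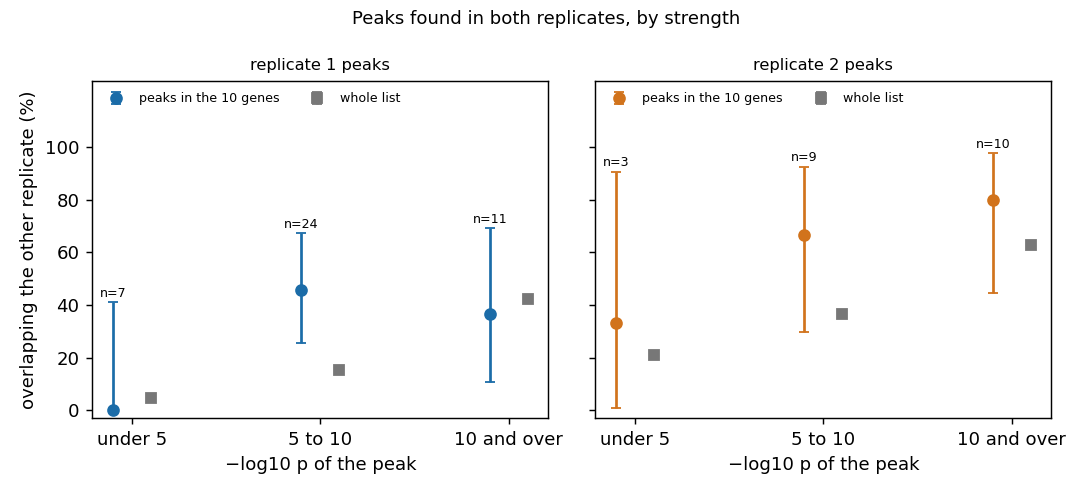
Share of peaks that overlap the other replicate (vertical axis, %) by class of −log10 p (horizontal axis), for peaks in the 10 genes and for the whole list, with 95% exact intervals and the number of family peaks above each point. From the weakest class to the strongest, the family's shares are 0, 45.8 and 36.4% in replicate 1 and 33.3, 66.7 and 80.0% in replicate 2, and the whole-list shares are 4.65, 15.5 and 42.1% and 20.9, 36.7 and 62.6%.

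A high −log10 p did not ensure a counterpart, in the family or in the whole lists. Of the 10 replicate 1 peaks of the family with the highest −log10 p, 4 overlapped replicate 2, namely 2 in SRSF4, 1 in SRSF6 and 1 in SRSF3. The unmatched 6 included the strongest peaks of SRSF1, TRA2A and TRA2B. Of the 10 such replicate 2 peaks, 8 overlapped replicate 1. All these peaks had a −log10 p of 10 or more. In that class, 42.1% of the whole replicate 1 list and 62.6% of the whole replicate 2 list overlapped. The 7 unmatched replicate 2 peaks of the family lay between 43 and 6042 bases from the nearest replicate 1 peak, with a median of 428 bases.

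Paired peaks had similar folds in both replicates. All 15 overlaps in these genes were deposited pairs, beside 72.6% of all overlapping replicate 2 peaks, since each covered at least 50% of its replicate 1 peak. The larger fold was at most 2 times the smaller in 15 of 15 pairs (interval 78.2 to 100). This interval includes the 90.5% of all deposited pairs. The SD of the log2 ratio of folds was 0.45, against 0.61 over all pairs. The fold was higher in replicate 1 in 8 pairs and in replicate 2 in 7, and the median log2 ratio was 0.02. Across these 15 pairs the Spearman correlation of fold was 0.79, against 0.32 across all 13758 pairs. For −log10 p the contrast was smaller, 0.59 against 0.43. The points share 2 libraries and 8 of them share 1 gene, so this is a description. Both folds reached 5 in 2 pairs, or 13.3%, beside 13.9% of all pairs, and these were the pairs nearest the start of SRSF3 and of SRSF6. Midpoints lay a median of 3.5 bases apart, against 4 bases over all pairs.

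**Figure D5:**
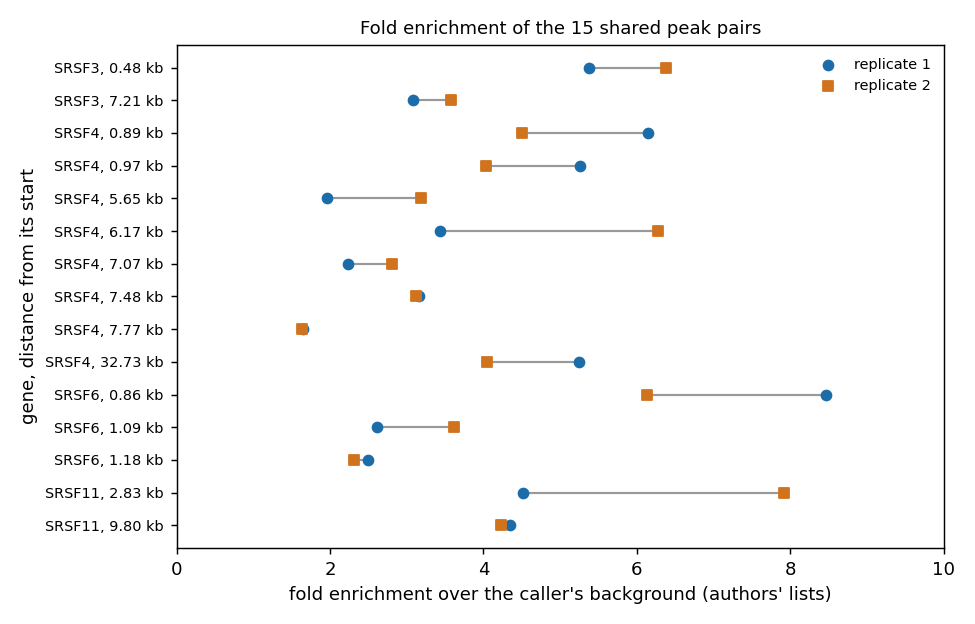
Fold enrichment (horizontal axis) of the 15 shared pairs in SRSF3, SRSF4, SRSF6 and SRSF11 (vertical axis, with distance from the gene start). Circles are replicate 1 and squares replicate 2, joined by a line for each pair. The widest gaps, 6.27 against 3.43 in SRSF4 and 7.91 against 4.51 in SRSF11, stay within a factor of 2.

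Peaks in these genes lay mostly toward the start of the window. In replicate 1, 34 of 42 peaks, or 81.0% (interval 65.9 to 91.4), had their midpoint in the first 50% of the gene's length, and 20 of 42 in the first 20%. In replicate 2 it was 20 of 22, or 90.9% (70.8 to 98.9), and 12 of 22. Of the shared pairs, 13 of 15 lay in the first 50%. SRSF4 did not set this alone: without it the shares in the first 50% were 76.0% in replicate 1 and 91.7% in replicate 2. SRSF1 went the other way, with 2 of its 3 peaks past the middle. SRSF3 was mixed. Its replicate 1 peaks lay at 4.8, 27.7, 64.7 and 71.1% of its length, and its replicate 2 peaks at 5.0, 6.2 and 71.1%. A comparison with other genes, and the placement of peaks in exons, introns or untranslated regions, need hg19 annotation and were not analysed here.

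No peak in these windows was listed on the strand opposite to the gene, in either replicate. Flanks of equal length on the gene's strand held peaks for SRSF4 only, with 8 and 5 upstream of its start in replicates 1 and 2, and 0 for the other 9 genes. On the opposite strand, flanking peaks were listed downstream of SRSF4 (1 in replicate 1 and 5 in replicate 2), upstream of SRSF11 (2 and 2) and downstream of SRSF11 (4 and 1). The sources used here do not say how a peak received its strand, or whether it was taken from a gene annotation. In the latter case the absence inside the windows could be set in advance, which was not tested. The absence of opposite-strand peaks inside the windows, and the flank counts by strand, were therefore not checked against reads.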

How the data were processed

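Peaks were called by the authors per library, with the caller's name (MACS2) and a p threshold of 0.005 in the peak names. The submitters' processing notes name hg19, Novoalign 3.09.00, MACS2 2.1.1.20160309 and bedtools 2.25.0, among others, without roles. The sources used here do not name the caller's control. The deposited lists give each peak a fold enrichment, an unadjusted −log10 p and a whole-number score of about 10 times that −log10 p. Repeated rows were kept once for each peak and strand. The deposited list of pairs was joined to the lists by peak name. It equals all overlaps on 1 strand that cover 50% or more of the peak in the first replicate. The 8 columns of the authors' count table match no sample label and were not used, so the planned count tests of CLIP against input and of Mettl3 KO against WT were not run.

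The gene windows were given in hg19. All 10 genes are named, with the peak of highest −log10 p and of highest fold in each list and the pair with the highest lower fold. Members and lists were chosen with earlier results of these data known. Positions are counted from 1. Intervals are 95% exact Clopper-Pearson intervals. Overlap counting was tested on simulated data. Peak sequences were not analysed here. Scripts ran in Python 3.11.15 with scipy 1.17.1, pandas 2.3.3, numpy 2.4.6 and matplotlib 3.10.9.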

Additional observations from a re-analysis of the deposited data

How the results depend on the processing

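Of 34 values recomputed under alternatives, 27 stayed within their interval, 1 SD or a factor of 1.5, 7 moved and 0 reversed. The 27 include the opposite-strand counts, which were 0 in each list under either setting and so say little. Leaving out SRSF4 for the position of peaks was chosen after seeing the data. Restricting the lists to peaks of at least 5-fold left 7 peaks in replicate 1 and 4 in replicate 2, and requiring it of both peaks left 2 of the 15 pairs, because few peaks pass. The peak density of 0.19 per kb, the mean of both lists, ranged from 0.13 to 0.249 when 1 replicate was left out. The share of replicate 2 peaks that overlapped, 68.2%, was 59.1% with 50% of both peaks required (19.6% in the whole list), 68.2% with replicate 1 reduced to the length of replicate 2 (18.6%) and 75% in the stronger 50% of each list (33.1%). It was 58.3 to 75% with each gene left out. The 3 longest genes, with 46.34, 34.38 and 27.26 of the 168.6 kb, held 64.3 and 68.2% of the peaks. They held 32.8 and 33.2% of the summed peaks per kb, a sum in which each of the 10 genes counts equally. In the stronger 50% the ratio of replicate 1 to replicate 2 peaks went from 1.33 to 2.00 in SRSF3 and from 2.50 to 5.00 in TRA2A. No paired analysis was possible because no column of read counts could be tied to a sample. The read depth behind the lists is unknown.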

Other observations

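Within each gene every peak was repeated in the same number of rows in both deposited lists: 1 row per peak in SRSF4, 2 in SRSF3, SRSF6, SRSF11 and TRA2B, 3 in SRSF1 and 4 in TRA2A. The lists held 1.91 times as many replicate 1 as replicate 2 peaks in the family, against 3.22 times over all peaks, and the share of replicate 2 among the 64 family peaks was 34.4% (interval 22.9 to 47.3), which includes the 23.7% of the whole lists. The ratio was 1.00 in SRSF6, 1.70 in SRSF4 and 5.00 in TRA2B. Another peak of the same list lay within 1 kb for 57.1% of replicate 1 and 59.1% of replicate 2 peaks of the family (intervals 41.0 to 72.3 and 36.4 to 79.3), beside 54.9 and 43.4% over all peaks.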
